A study of Mus musculus with 3 samples.

Results

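Transcript levels of 10 genes of the YAP-TEAD pathway were described in mouse keratinocytes, the epithelial cells of the epidermis. They comprise the transcriptional co-activators Yap1 and Wwtr1 (which encodes TAZ), the DNA-binding factors Tead1 and Tead3, and the target genes Ccn1 (also Cyr61), Ccn2 (also Ctgf), Ankrd1, Amotl2, Lats2 and Axl. All 10 were found among the 41214 gene identifiers, and all 10 were among the 11865 genes that reached at least 1 CPM (counts of a gene scaled to a common library size) in at least 1 library. The study sequenced 3 cultures, 1 library per genotype: wild type (wt), ARPC4 ko and Nrf2-EGFP. ARPC4 belongs to the Arp2/3 complex, which builds branched actin networks, and Nrf2 is a transcription factor of antioxidant genes, here joined to the fluorescent protein EGFP. All 3 cultures were C57BL/6 keratinocytes immortalised with SV40 and collected during exponential growth. Library titles carry 1 line name in common, with the added word Cre for ARPC4 ko and High for Nrf2-EGFP. Whether each culture is a clone, which part of Arpc4 was deleted, what drives the Nrf2 fusion and whether the wt cells carry a control vector were not given in the sources used here.

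YAP and TAZ have no DNA-binding domain of their own and reach their targets through TEAD factors. When the Hippo kinases are active, LATS kinases phosphorylate YAP and TAZ, which are then held in the cytoplasm or degraded. Tension on the actin cytoskeleton and cell spreading favour their entry into the nucleus, and in the epidermis YAP is known for supporting the growth of basal cells. Because this control acts mainly on protein location, transcript levels of Yap1 and Wwtr1 do not report it, and transcripts of targets such as Ccn1, Ccn2 and Ankrd1 are the usual readout.

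With 1 library per genotype, the spread between cultures was not measured, no p-value is given and no test of genotypes was possible. Parentheses give exact 95% counting intervals of the ratio of counts. They compare libraries and cover counting error only. To "pass the size rule", a gene needed a log2 fold, computed on CPM + 0.5, of at least 1 in size and an interval that excluded 1. The libraries held between 22924294 and 25723959 gene counts. Arpc4 itself had 94.2 CPM in wt against 61.0 (ARPC4 ko) and 98.4 (Nrf2-EGFP), and 1483 counts of it remained in the library labelled ARPC4 ko. Nfe2l2, which encodes Nrf2, had 224.7, 179.5 and 166.4 CPM in the same order, no higher in the library labelled Nrf2-EGFP than in wt. Since neither gene follows its label simply, the libraries are named by their labels. Of 12 keratinocyte markers 11 had at least 1 CPM in each library, with summed levels of 26605, 16249 and 21215 CPM (wt, ARPC4 ko, Nrf2-EGFP). Of these 11, Krt5 and Krt14, the most abundant in wt, were the ones that passed as lower in ARPC4 ko against wt, where 2.06% of all genes did. Krt5 was 2.11-fold lower (8997 to 4260 CPM) and Krt14 2.27-fold lower (7378 to 3249 CPM). In that comparison the interval lay above 1 for 3 of the 11, Trp63, Cdh3 and Col17a1, against 31.6% of all genes. It lay below 1 for 7, Krt5 and Krt14 included, and the share of all genes below 1 was not counted. The 12 fibroblast markers summed to 2.27, 6.05 and 5.31 CPM, with Col1a2, Col3a1, Dcn, Lum, Pdgfrb and Thy1 at 0 in every library. Vim had 12, 68 and 3 counts and passed as higher in ARPC4 ko (5.24-fold, 2.81 to 10.6), the only library where it reached 1 CPM. Twist2 had 15, 29 and 63 counts and passed as higher in Nrf2-EGFP (3.80-fold, 2.14 to 7.19). Pdgfra had 22, 27 and 46 counts, Col1a1 2, 11 and 16, Postn 0, 12 and 3, and Fap at most 1.

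RefSeq promoter sequences (GRCm38.p6, the same assembly as the mm10 build of the counts) were matched for 8 of the 10 genes, all but Ccn2 and Tead1. They are shown because the transcripts of several of these genes were higher than in wt in both other libraries, and because TEAD factors bind the core GGAATG. Each entry holds 250 bases before and 50 after an annotated start. The core, searched as GGAATG on both strands, was found in at least 1 entry of all 8 genes and in 10 of their 12 entries. Among all 32851 promoter entries it was found in 14.66%, and 16.58% of all 27025 genes had it in at least 1 entry. Several of these genes are known TEAD targets, so a high share is not independent of how the list was made, and a match is a description of letters, not a binding site. Ankrd1 had 2 matches on its own strand, starting 210 and 123 bases before the start. Ccn1 had 1 match on the opposite strand, starting 103 bases before the start. Their 250 upstream bases follow, on the minus strand of chr3:145649986-145650235 (Ccn1) and chr19:36119845-36120094 (Ankrd1), with matches in capitals (CATTCC is GGAATG on the other strand).
Ccn1: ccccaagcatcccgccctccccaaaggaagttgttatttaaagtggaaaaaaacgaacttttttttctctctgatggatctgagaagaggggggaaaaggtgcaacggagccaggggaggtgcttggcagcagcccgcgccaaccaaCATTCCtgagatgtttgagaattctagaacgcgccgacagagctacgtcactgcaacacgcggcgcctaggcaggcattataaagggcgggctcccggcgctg
Ankrd1: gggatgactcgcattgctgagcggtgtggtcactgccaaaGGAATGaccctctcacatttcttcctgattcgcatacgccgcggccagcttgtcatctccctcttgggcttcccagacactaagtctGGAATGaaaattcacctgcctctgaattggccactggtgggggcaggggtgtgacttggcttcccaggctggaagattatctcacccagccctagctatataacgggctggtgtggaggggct

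The other genes are shown by the 30 bases around a match, to compare the flanks of the core. Amotl2 (plus strand, chr9:102717727-102717756) had the match nearest to its start among the upstream ones, starting 65 bases before it. Axl (minus strand, chr7:25788949-25788978) had the farthest, at 233 bases. Yap1 (minus strand, chr9:8004720-8004749) and Wwtr1 (minus strand, chr3:57576029-57576058), the genes of the co-activators themselves, each had 1 upstream match, and the 2 overlapping entries of Wwtr1 share it. Tead3 (minus strand, chr17:28350706-28350735) had a pair of cores in 1 of its 3 entries, separated by 3 bases.
Amotl2: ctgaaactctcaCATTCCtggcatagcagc
Axl: ggaaattctacaGGAATGtttaccagaccc
Yap1: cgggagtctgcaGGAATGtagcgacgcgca
Wwtr1: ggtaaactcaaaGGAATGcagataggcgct
Tead3: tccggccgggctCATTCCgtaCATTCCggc

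Lats2 had its match inside the transcribed bases, from base 5 after 1 of its 2 annotated starts, and Tead3 had a further one from base 3. The AP-1 motif TGANTCA, present in 7.81% of all promoter entries, and the CArG box of serum response factor, present in 1.63%, were found in none of the 12 entries. That says only that these letters are not in these windows.

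**Figure D1:**
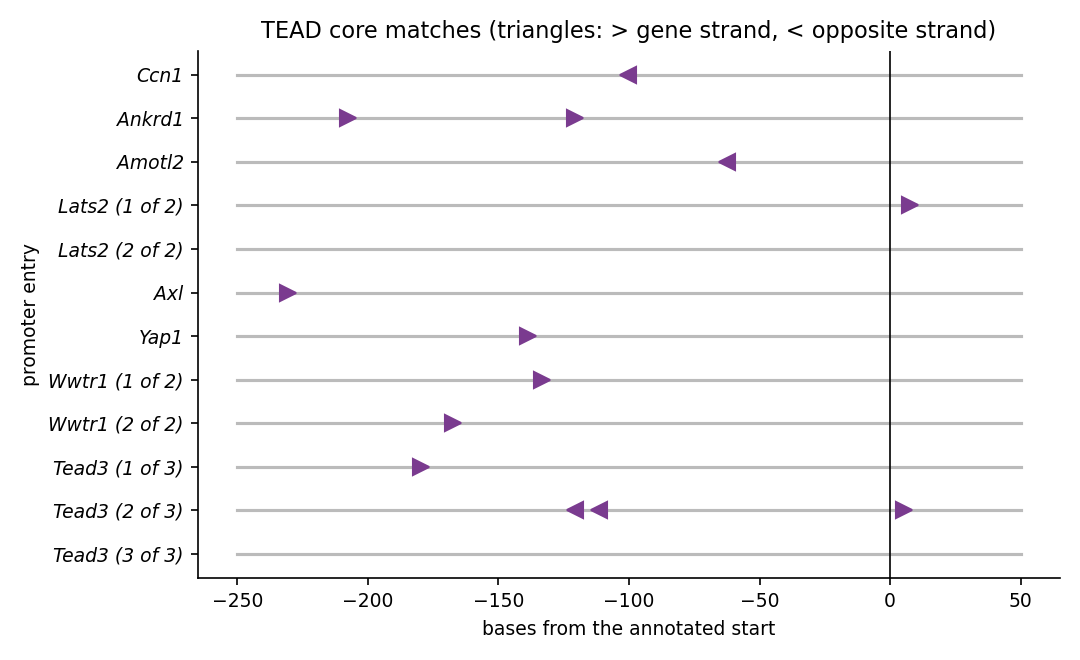
Position of TEAD core matches in the 12 RefSeq promoter entries of 8 genes, in bases from the annotated start (vertical line). Triangles pointing right lie on the gene's strand and those pointing left on the opposite strand; 10 of 12 entries hold at least 1 match, and those of Ccn1, Ankrd1, Amotl2, Axl, Yap1 and Wwtr1 lie before the start.

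The secreted CCN proteins Ccn1 and Ccn2, matrix-associated ligands of integrins and the most used readouts of YAP and TAZ, were lowest in wt, intermediate in the library labelled ARPC4 ko, and highest in that labelled Nrf2-EGFP. Ccn1 (ENSMUSG00000028195, mm10 chromosome 3, 145646976 to 145649981) had 2172 counts in the wt library, 4622 in ARPC4 ko and 6724 in Nrf2-EGFP, or 96.6, 190.1 and 270.6 CPM. The 3 levels were separate beyond counting error. Ccn1 was 1.97-fold (1.87 to 2.07) higher in ARPC4 ko than in wt, just under the size rule with a log2 fold of 0.97, and 2.80-fold (2.67 to 2.94) higher in Nrf2-EGFP, which passed. With libraries scaled by total counts alone, its log2 fold in ARPC4 ko was 1.08 and passed.

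Ccn2 (ENSMUSG00000019997, chromosome 10, 24595442 to 24598683) had 451 counts in the wt library, 908 in ARPC4 ko and 1979 in Nrf2-EGFP, or 20.1, 37.4 and 79.6 CPM. It had the highest log2 fold of the 10 genes in Nrf2-EGFP against wt, 1.96, with a ratio of 3.97 (3.58 to 4.41), and only 65 of all 11865 genes had a higher one. In ARPC4 ko it was 1.86-fold (1.66 to 2.09) higher than in wt and did not pass. Ccn2 was also the only one of the 10 to pass between the libraries labelled Nrf2-EGFP and ARPC4 ko, at 2.13-fold (1.97 to 2.31), and with scaling by total counts none of the 10 passed there. An antisense transcript that overlaps Ccn2, Gm15270, had 3, 9 and 10 counts in the same library order.

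The proportion of Ccn2 to Ccn1 within a library does not depend on how libraries are scaled. Per kilobase of exon, Ccn2 stood at 0.147 of Ccn1 in the wt library, 0.139 in ARPC4 ko and 0.208 in Nrf2-EGFP. That proportion was 1.42-fold (1.26 to 1.59) higher in Nrf2-EGFP than in wt, while the ratio between ARPC4 ko and wt, 0.95 (0.83 to 1.07), had an interval that includes 1. In the library labelled Nrf2-EGFP the difference from wt was thus larger for Ccn2 than for Ccn1.

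Of the 6 genes of the CCN family, 3 were measured, and the third was Ccn4 (Wisp1), known as a target of Wnt signalling. Ccn4 had 17.4 CPM in the wt library, 38.9 in ARPC4 ko and 87.6 in Nrf2-EGFP. It passed the size rule in both libraries, at 2.24-fold (1.99 to 2.52) and 5.04-fold (4.52 to 5.62). Ccn3 had between 2 and 7 counts per library. For Ccn5 and Ccn6 no counts were found in any library, which allows up to 3 counts each, or 0.133 CPM in wt. Among 9112 named genes with at least 10 CPM in a library, those nearest to Ccn2 in both log2 folds against wt were Sorcs2, Gnao1, Cdh2, Piezo2 and Tnc, at distances of 0.16 to 0.23 log2 units. This likeness rests on 3 libraries.

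**Figure D2:**
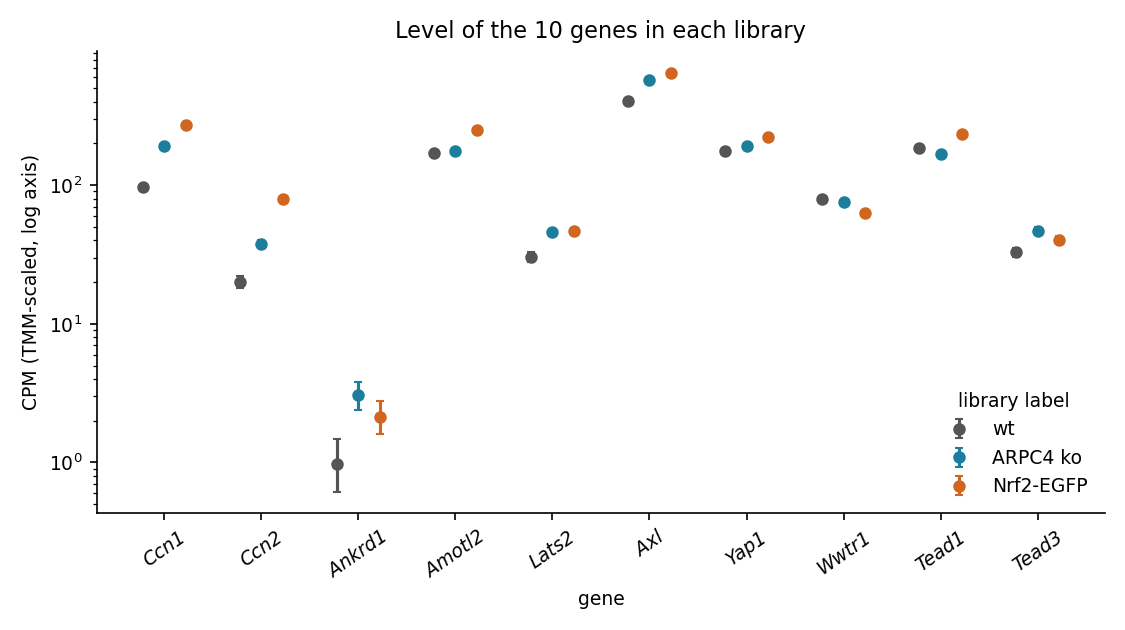
Level of each of the 10 genes in the 3 libraries, in TMM-scaled CPM on a log axis, with 1 point per library and exact 95% Poisson intervals (counting error only). Ccn1 and Ccn2 step up from wt to ARPC4 ko to Nrf2-EGFP, Wwtr1 is lowest in Nrf2-EGFP, and Ankrd1 lies near 1 to 3 CPM.

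Ankrd1, a muscle ankyrin repeat protein found in the nucleus and at the sarcomere and a strong YAP target in many cell types, had few counts in every library. Ankrd1 (ENSMUSG00000024803, chromosome 19, 36111961 to 36120099) had 22 counts in the wt library, 74 in ARPC4 ko and 53 in Nrf2-EGFP, or 0.98, 3.04 and 2.13 CPM. It reached the filter of 1 CPM only through the libraries where it was high. It was 3.11-fold (1.91 to 5.26) higher in ARPC4 ko than in wt and was the only one of the 10 genes to pass there, with a log2 fold of 1.26. In Nrf2-EGFP the ratio was 2.18 (1.30 to 3.76), but its log2 fold of 0.83 did not pass because the added 0.5 CPM shrinks folds of genes this low. With a pseudocount of 2 CPM it did not pass in ARPC4 ko, and with 0.1 CPM it passed in both. The libraries labelled ARPC4 ko and Nrf2-EGFP could not be told apart in Ankrd1 (ratio 0.70, 0.48 to 1.01). Of its relatives, Ankrd23 had 59, 69 and 57 counts, and Ankrd2 had at most 2 counts in a library.

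Amotl2 and Lats2 are targets that also restrain the pathway: angiomotin-like 2 binds YAP in the cytoplasm and at junctions, and Lats2 is a kinase that phosphorylates YAP and TAZ. Amotl2 (chromosome 9, 102716672 to 102733418) had 170.9 CPM in the wt library, 174.7 in ARPC4 ko and 248.6 in Nrf2-EGFP. The wt and ARPC4 ko libraries were not distinguishable in Amotl2 (1.02-fold, 0.98 to 1.07), and the Nrf2-EGFP library was 1.45-fold (1.40 to 1.51) above wt. With scaling by total counts, the log2 fold of Amotl2 in ARPC4 ko changed from 0.03 to 0.14, so that likeness depends on the scaling. Lats2 (chromosome 14, 57689662 to 57758388) had 30.3, 45.7 and 46.6 CPM. Here both libraries lay above wt by close to the same ratio, 1.51 (1.37 to 1.66) in ARPC4 ko and 1.54 (1.40 to 1.69) in Nrf2-EGFP, and did not differ from each other beyond counting error (1.02, 0.94 to 1.11). Neither gene passed the size rule.

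Axl, a receptor tyrosine kinase of the TAM family that binds Gas6, was the most abundant of the 10 genes per kilobase in the wt and ARPC4 ko libraries. Axl (chromosome 7, 25757273 to 25788705) had 406.4 CPM in the wt library, 568.3 in ARPC4 ko and 645.8 in Nrf2-EGFP, or 80.7, 112.9 and 128.3 CPM per kilobase. It was 1.40-fold (1.36 to 1.44) higher in ARPC4 ko than in wt and 1.59-fold (1.55 to 1.63) higher in Nrf2-EGFP, without passing. These intervals are narrow because Axl had 9138 to 16046 counts. In Nrf2-EGFP, Ccn1 was above Axl per kilobase, at 134.0 against 128.3, but with the longest transcript as the length Axl was above, at 151.4.

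The co-activators differed from wt by at most 1.27-fold, and in Nrf2-EGFP they lay on opposite sides of it. Yap1 (chromosome 9, 7931999 to 8004596) had 177.1 CPM in the wt library, 191.4 in ARPC4 ko and 220.7 in Nrf2-EGFP. It was 1.08-fold (1.04 to 1.13) and 1.25-fold (1.20 to 1.30) above wt. Wwtr1 (chromosome 3, 57455649 to 57575910) had 79.9, 75.2 and 63.1 CPM. It was 1.27-fold (1.18 to 1.36) lower in Nrf2-EGFP than in wt, and its ratio in ARPC4 ko, 0.94 (0.882 to 1.005), did not differ from 1 beyond counting error. With scaling by total counts, the log2 fold of Wwtr1 in ARPC4 ko changed from -0.09 to 0.02.

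Within each library, independently of scaling, the proportion of Wwtr1 to Yap1 transcripts was highest in wt. Relative to wt it was 1.15-fold (1.06 to 1.24) lower in ARPC4 ko and 1.58-fold (1.46 to 1.71) lower in Nrf2-EGFP. Per kilobase of all annotated exons, Yap1 exceeded Wwtr1 by 1.14-fold in the wt library, 1.31-fold in ARPC4 ko and 1.81-fold in Nrf2-EGFP. The order of those 2 genes held with the longest transcript in place of all exons (33.5 CPM per kilobase for Yap1 and 17.0 for Wwtr1 in wt), but the size of the gap depends on the length used.

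Tead1 and Tead3, which give YAP and TAZ their DNA contact, differed from wt by unequal amounts. Tead1 (chromosome 7, 112679318 to 112906807) had 185.9 CPM in the wt library, 168.1 in ARPC4 ko and 235.2 in Nrf2-EGFP, and was thus 1.11-fold (1.06 to 1.15) lower and 1.26-fold (1.22 to 1.32) higher than in wt. With scaling by total counts, the log2 fold of Tead1 in ARPC4 ko changed from -0.14 to -0.04. Tead3 (chromosome 17, 28331671 to 28350817) had 32.7, 46.8 and 40.2 CPM, and was 1.43-fold (1.30 to 1.57) and 1.23-fold (1.12 to 1.35) higher. The proportion of Tead3 to Tead1 was 1.58-fold (1.43 to 1.75) higher in ARPC4 ko than in wt, and in Nrf2-EGFP its ratio to wt was 0.97 (0.87 to 1.08). None of these differences in a TEAD member passed the size rule.

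**Figure D3:**
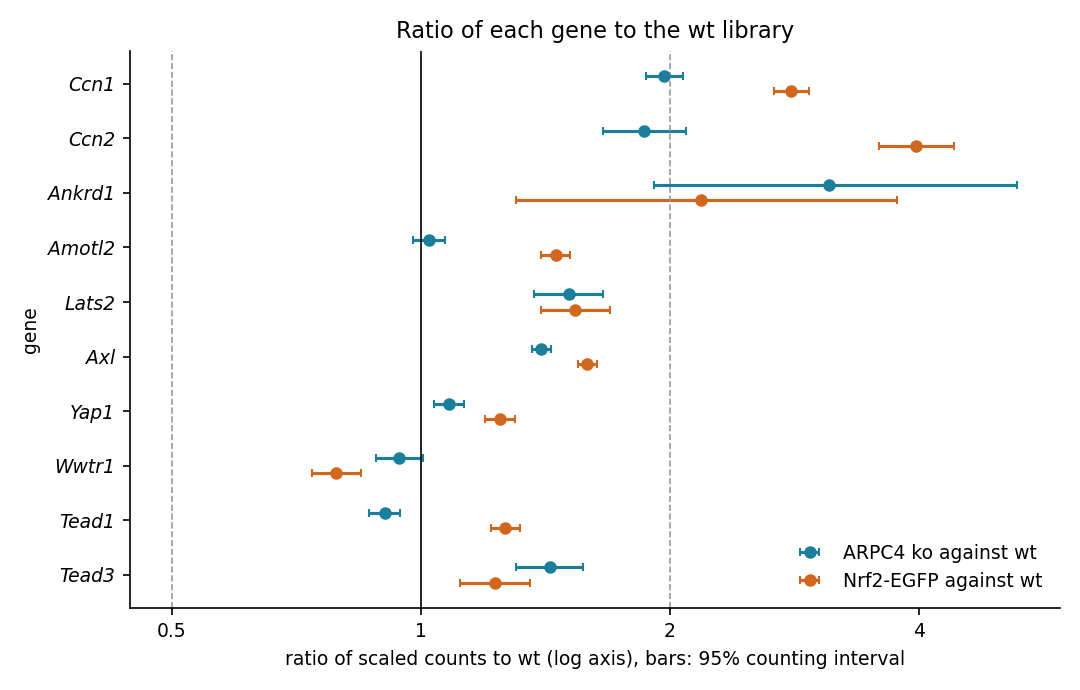
Ratio of scaled counts to the wt library for each gene (log axis; points are ratios, bars exact 95% counting intervals, dashed lines 0.5 and 2). Ccn1 and Ccn2 in Nrf2-EGFP lie wholly above 2, Ankrd1 has the widest intervals, and Wwtr1 in Nrf2-EGFP lies wholly below 1.

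Counted together, 1 of the 10 genes (Ankrd1) passed the size rule as higher in ARPC4 ko against wt, where 4.70% of all genes tested did. Ankrd1 met the filter of 1 CPM only through the libraries where it was high. With a filter of 10 CPM or a pseudocount of 2 CPM none of the 10 passed there. In Nrf2-EGFP against wt 2 of 10 passed (Ccn1 and Ccn2), where 3.57% of all genes did. None passed as lower, against 2.06% and 2.05% of all genes. Between Nrf2-EGFP and ARPC4 ko, 1 of 10 passed as higher, against 0.961%, and none as lower, against 2.01%. Beneath the size rule, 8 of 10 had a log2 fold above 0 in ARPC4 ko against wt and 9 of 10 in Nrf2-EGFP against wt, where 48.5% and 50.5% of all genes did. The counting interval lay above 1 for 7 and 9 of the 10, against 31.6% and 32.1% of all genes. The median log2 fold of the 10 was 0.50 in ARPC4 ko and 0.58 in Nrf2-EGFP, beside -0.01 and 0.00 over all genes. Both comparisons share the wt library. The 10 genes were chosen with earlier results of these data known, so the contrast with all genes is not independent of that choice. Scaling by total counts shifted the median over all genes in ARPC4 ko against wt from -0.01 to 0.09 and that of the 10 genes to 0.60.

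**Figure D4:**
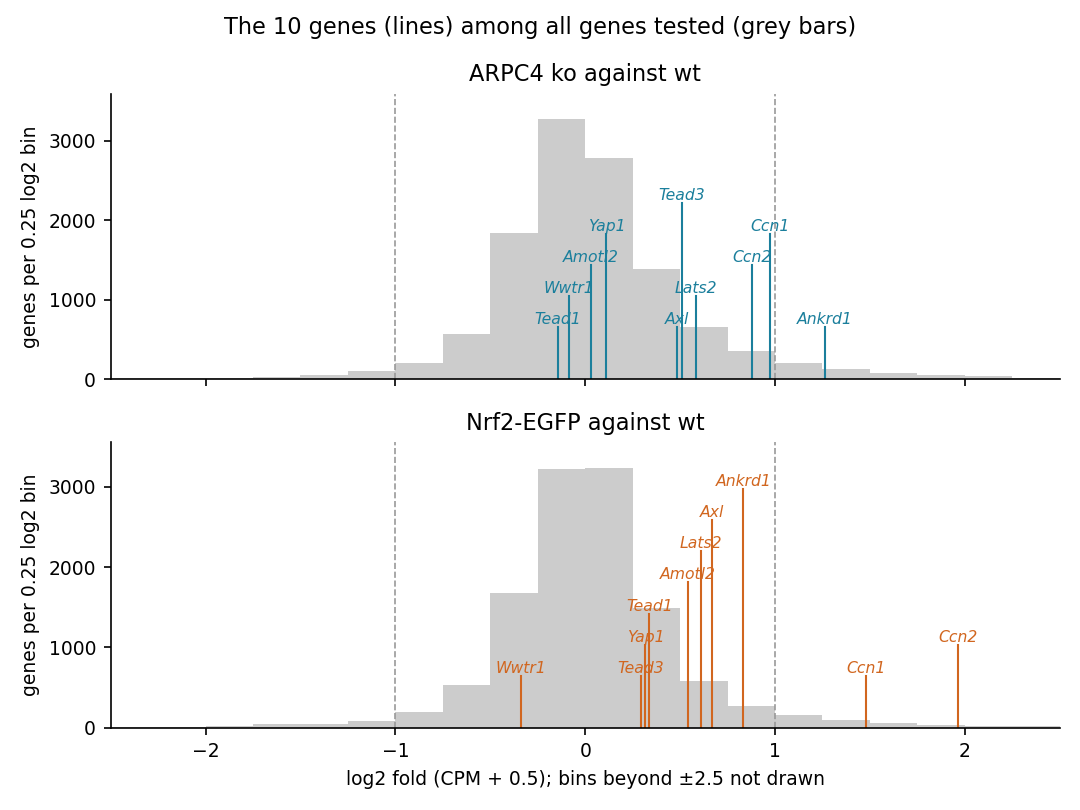
Distribution of log2 folds (CPM + 0.5) over the 11865 genes tested (grey bars, genes per bin of 0.25) with the 10 genes as labelled lines, whose heights carry no value, for ARPC4 ko against wt (top) and Nrf2-EGFP against wt (bottom). Dashed lines mark a log2 fold of 1 in size; Ccn1 and Ccn2 lie beyond it in the lower panel and Ankrd1 in the upper.

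A 22-gene YAP and TAZ signature known from cancer studies was also counted. It includes Ccn1, Ccn2, Ankrd1, Amotl2, Lats2 and Axl, so its counts overlap with those above. This list was also chosen with earlier results of these data known. Of 20 measured signature genes, 2 passed as higher (Ankrd1 and Igfbp3) and 1 as lower in ARPC4 ko against wt. Of all genes, 4.70% and 2.06% did. Ankrd1 met the filter only through the libraries where it was high. In Nrf2-EGFP 3 passed as higher (Ccn1, Ccn2 and Igfbp3) and none as lower, against 3.57% and 2.05% of all genes. The median log2 folds were 0.27 and 0.49. Log2 folds were above 0 for 17 and 18 of 20, against 48.5% and 50.5% of all genes. Igfbp3, a secreted binding protein of insulin-like growth factors, passed in both, with 130.8 CPM in the wt library, 365.3 in ARPC4 ko (2.79-fold, 2.68 to 2.91) and 505.3 in Nrf2-EGFP (3.86-fold, 3.71 to 4.02). F3, the tissue factor that starts coagulation, was the member lower by the rule, with 132.8, 51.7 and 93.5 CPM, or 2.57-fold (2.41 to 2.75) lower in ARPC4 ko. Apart from these and Ccn1, Ccn2 and Ankrd1, no measured signature gene passed in a comparison with wt. Foxf2 and Tgfb2 were below 1 CPM in every library.

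**Figure D5:**
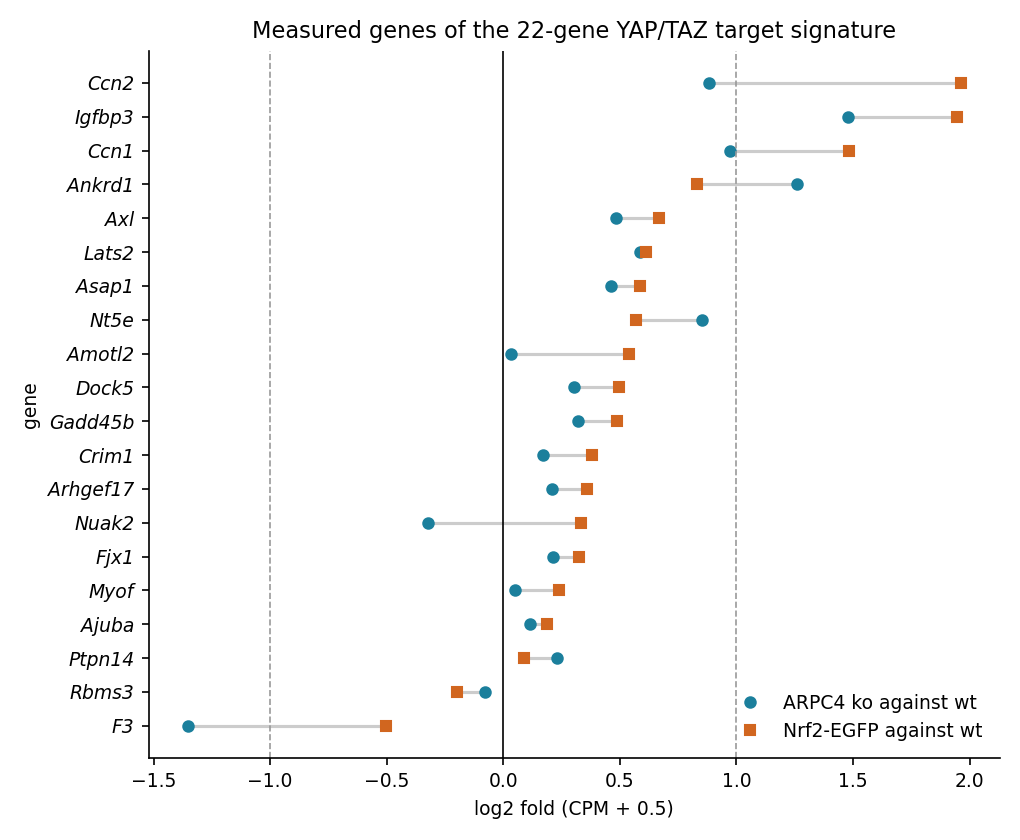
Log2 fold (CPM + 0.5) against wt of the 20 measured genes of the 22-gene signature, circles for ARPC4 ko and squares for Nrf2-EGFP, ordered by the latter. Most genes lie right of 0; Ccn2, Igfbp3 and Ccn1 pass 1 in Nrf2-EGFP and F3 lies below -1 in ARPC4 ko.

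Of a further 12 targets cited for YAP or TAZ, all 9 measured ones had log2 folds above 0 in both comparisons (medians 0.37 and 0.55). Of all genes, 48.5% and 50.5% did. The counting interval lay above 1 for 6 of the 9 in ARPC4 ko and 8 in Nrf2-EGFP, against 31.6% and 32.1% of all genes. One of the 9, Wnt5a, was measured only because it reached 1 CPM in Nrf2-EGFP. These targets, too, were listed with earlier results of these data known. Thbs1, the matrix protein thrombospondin 1, had 1437, 2652 and 3737 CPM in the same library order and passed in Nrf2-EGFP at 2.60-fold (2.57 to 2.63). Edn1, the peptide endothelin 1, had 10.6, 21.7 and 20.9 CPM and passed in ARPC4 ko at 2.05-fold (1.76 to 2.40), but with a pseudocount of 2 CPM none of these targets passed there. Both genes are also known to respond to other pathways, such as TGF-beta, and the part of any of them was not tested.

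Among TEAD factors and the vestigial-like cofactors that bind them, 1 of 6 measured genes passed in each comparison with wt, and it was Tead2 in both. Of all genes, 4.70% (ARPC4 ko) and 3.57% (Nrf2-EGFP) passed as higher. Tead2 had 30.6 CPM in the wt library, 75.0 in ARPC4 ko and 75.5 in Nrf2-EGFP, or 2.45-fold (2.25 to 2.68) and 2.47-fold (2.26 to 2.70) higher. Per kilobase it had 6.38, 15.7 and 15.8 CPM. Tead4 had 51.9, 46.5 and 53.7 CPM. Vgll3 was 1.29-fold (1.20 to 1.38) lower in ARPC4 ko and 1.13-fold (1.06 to 1.20) higher in Nrf2-EGFP, and Vgll4, a repressor of TEAD activity, was 1.19-fold (1.12 to 1.28) higher and 1.25-fold (1.17 to 1.35) lower. Vgll1 and Vgll2 had at most 1 count in a library.

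None of 9 Hippo kinases and adaptors, which lead to the phosphorylation of YAP and TAZ, passed in either comparison with wt (medians 0.04 and 0.02, the latter -0.01 with scaling by total counts). Over all genes, 6.76% and 5.61% passed in either direction. Members lay on both sides of wt: the counting interval was above 1 for 4 and below 1 for 2 in ARPC4 ko. In Nrf2-EGFP it was above 1 for 4 and below 1 for 3. It was above 1 for 31.6% and 32.1% of all genes, and the share of all genes below 1 was not counted. Lats2 had the highest log2 fold in both. Sav1, the scaffold of the MST kinases, was 1.36-fold (1.27 to 1.44) lower in Nrf2-EGFP. The kinase Stk38 was 1.37-fold (1.28 to 1.47) higher in ARPC4 ko and 1.23-fold (1.14 to 1.32) higher in Nrf2-EGFP. Its relative Stk38l was 1.16-fold (1.05 to 1.28) higher in ARPC4 ko, with a ratio of 1.01 (0.92 to 1.12) in Nrf2-EGFP. Of 14 upstream activators, Tnik was the one past the rule, with 10.5, 5.84 and 3.90 CPM. It was 2.68-fold (2.1 to 3.43) lower in Nrf2-EGFP, where 2.05% of all genes passed as lower. Wwc2, a relative of the scaffold KIBRA, was 1.35-fold (1.28 to 1.42) higher in ARPC4 ko and 1.81-fold (1.73 to 1.90) higher in Nrf2-EGFP without passing, and Map4k5 was 1.29-fold (1.22 to 1.36) and 1.28-fold (1.21 to 1.35) lower. Map4k2 was 1.36-fold (1.23 to 1.49) higher in ARPC4 ko.

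None of 12 cytoplasmic binding partners of YAP and TAZ passed in either comparison with wt, against 6.76% and 5.61% of all genes. Their median log2 folds were -0.11 (ARPC4 ko) and 0.02 (Nrf2-EGFP). In ARPC4 ko the counting interval was above 1 for 4 of the 12 and below 1 for 6. In Nrf2-EGFP it was above 1 for 5 and below 1 for 5. Of all genes, 31.6% and 32.1% had it above 1, and the share below 1 was not counted. All 3 angiomotins lay above wt in Nrf2-EGFP: Amot by 1.55-fold (1.37 to 1.77), Amotl1 by 1.43-fold (1.39 to 1.47) and Amotl2 as given above. In ARPC4 ko, Amot was also above wt by 1.46-fold (1.28 to 1.66) and Amotl1 by 1.15-fold (1.12 to 1.19). Amot did not differ between Nrf2-EGFP and ARPC4 ko beyond counting error (1.07, 0.96 to 1.19). Sfn, the 14-3-3 protein of epithelia that binds phosphorylated YAP, had the lowest log2 fold of the 12 in ARPC4 ko against wt, with 1758, 1132 and 1501 CPM in the 3 libraries, 1.55-fold (1.53 to 1.58) lower than in wt. Of the 11 measured keratinocyte markers, given above, 7 had an interval below 1 and 3 above 1 in ARPC4 ko against wt. Their median log2 fold there was -0.34, and their part in these differences was not tested. Of 12 genes of the STRIPAK phosphatase complex, which dephosphorylates MST kinases, and of LATS antagonists, 1 passed, Strip2. It went from 10 counts in wt to 46 in ARPC4 ko (4.26-fold, 2.12 to 9.46), where 4.70% of all genes passed as higher. Strip2 reached the filter of 1 CPM only through ARPC4 ko, the library where it was high, and with a pseudocount of 2 CPM none of the 12 passed. Sike1 was 1.39-fold (1.28 to 1.51) lower in ARPC4 ko and 1.40-fold (1.29 to 1.51) lower in Nrf2-EGFP, and Wtip was 1.31-fold (1.17 to 1.46) higher in ARPC4 ko.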

How the data were processed

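Messenger RNA was sequenced from 3 keratinocyte cultures (TruSeq Stranded mRNA, 65 bp single end, per the labels' protocols). Values deposited by the authors are raw read counts per gene, 1 table per library, made with TopHat2 2.1.0, Bowtie 1.1 and HTSeq on mm10, per the submitters' processing notes. The strand setting and annotation release were not given in the sources used here. Reads of antisense partners cannot be told apart if strand was ignored. Non-gene lines, which held 8.22% to 9.08% of all counts in a library, were left out. Symbols, exon lengths and coordinates came from GENCODE M21 (GRCm38), which named 40254 of 41214 identifiers.

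Libraries were scaled with TMM factors (0.981, 1.06 and 0.966 for wt, ARPC4 ko and Nrf2-EGFP) of edgeR 4.0.16 in R 4.3.3, and genes under 1 CPM in every library were dropped. Intervals are Clopper-Pearson intervals conditional on each gene's sum. Without molecular identifiers reads cannot be taken as independent molecules, so intervals and the floor of 3 counts for a 0 cover counting error only. The steps were tested on simulated data with known folds and Poisson counting noise only, which cannot check the spread between cultures.

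The 10 genes and all lists were chosen with earlier results of these data known. Named were the 10 genes and, per list, genes past the size rule in a comparison with wt and up to 4 with the largest log2 folds, and 2 of these are not reported here. Alternatives were other scalings (DESeq2 1.42.0 size factors among them), pseudocounts, filters and a 1.5-fold rule. Levels per kilobase used the union of annotated exons.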

Additional observations from a re-analysis of the deposited data

How the results depend on the processing

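Of the 10 genes, Ccn1 and Ccn2 passed in Nrf2-EGFP against wt under all 8 alternatives. In ARPC4 ko against wt the number past the rule was 1, 2 with scaling by total counts, 0 with a pseudocount of 2 CPM, 0 with a filter of 10 CPM and 3 with a 1.5-fold rule. At 1.5-fold, 5 passed in Nrf2-EGFP against wt. Between Nrf2-EGFP and ARPC4 ko none passed with scaling by total counts, and the median of the 10 was 0.067 instead of 0.19. In ARPC4 ko it was 0.60 instead of 0.50. The counts over all genes, given as higher and lower, were 558 and 244 (ARPC4 ko against wt), 423 and 243 (Nrf2-EGFP against wt) and 114 and 239 (Nrf2-EGFP against ARPC4 ko). They became 311 and 143, 258 and 104, and 67 and 80 with a pseudocount of 2 CPM. With a filter of 10 CPM they were 253 and 121, 242 and 92, and 62 and 52, and with a 1.5-fold rule 1285 and 740, 1021 and 679, and 401 and 694. Medians of small lists near 0 changed sign with scaling by total counts: upstream activators from -0.083 to 0.022 (ARPC4 ko against wt) and from 0.060 to -0.066 (Nrf2-EGFP against ARPC4 ko), TEAD and vestigial-like genes from 0.11 to -0.019 (Nrf2-EGFP against ARPC4 ko), and, in Nrf2-EGFP against wt, kinases from 0.017 to -0.0052 and cytoplasmic partners from 0.017 to -0.0050. The Ankrd1 family went from 0.34 to -0.12 without a filter (Nrf2-EGFP against wt), and STRIPAK genes from 0.020 to -0.052 at 10 CPM (ARPC4 ko against wt). The causes were not tested. No paired analysis was possible because each group has 1 library.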

Other observations

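Around Axl, the other measured TAM genes lay above wt in the library labelled ARPC4 ko. The 4 measured genes of 5, Axl included, had log2 folds above 0 in both comparisons with wt, where 48.5% (ARPC4 ko) and 50.5% (Nrf2-EGFP) of all genes did. The counting interval lay above 1 for 4 of them in ARPC4 ko and for 3 in Nrf2-EGFP, against 31.6% and 32.1% of all genes. The TAM list was chosen with earlier results of these data known. Pros1, which encodes protein S, a ligand of Tyro3 and Mertk, had 31 counts in the wt library, 131 in ARPC4 ko and 53 in Nrf2-EGFP and passed the size rule in ARPC4 ko (3.91-fold, 2.63 to 5.98), while its interval in Nrf2-EGFP included 1 (1.55-fold, 0.98 to 2.49). Tyro3, a receptor of the same family, had 31.4, 62.6 and 44.8 CPM, and its log2 fold of 0.99 in ARPC4 ko lay just under the rule. Gas6, the ligand of Axl, had 37.9, 69.3 and 52.0 CPM, 1.83-fold (1.68 to 1.99) and 1.37-fold (1.26 to 1.5) above wt. Mertk had 4, 4 and 0 counts. Whereas Axl itself was highest in Nrf2-EGFP, Gas6, Tyro3 and Pros1 were highest in ARPC4 ko.

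Wnt5a, a secreted ligand of noncanonical Wnt signalling that is also cited as a YAP target, had 11 counts in the wt library, 19 in ARPC4 ko and 82 in Nrf2-EGFP. It passed the size rule in Nrf2-EGFP against wt (6.75-fold, 3.58 to 14.04), but it reached the filter of 1 CPM only through Nrf2-EGFP, the library where it was high. Among 8 endothelial markers, Flt1 had 24.7, 51.8 and 59.8 CPM and passed in both comparisons with wt. Pecam1 had 28, 19 and 30 counts and Eng 30, 30 and 49, and neither passed. Tie1 had 17, 10 and 3 counts, below 1 CPM in every library. Kdr and Tek had at most 5 counts, Cdh5 at most 1 and Emcn none in any library.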
